A study of Homo sapiens with 2 samples.

Results

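The genes described here are 10 genes of PI3K, mTOR and SGK1 signalling (PIK3R1, PIK3CB, PIK3CA, AKT1, SGK1, TSC2, RHEB, MTOR, RPTOR and RICTOR), taken as every probe set whose annotation names 1 of them and no other gene. Of the 54675 probe sets on the array, 25 met this rule and named 9 of the 10 genes; the signal of PIK3CA was not analysed here, only its promoter window. HT-29, a human colorectal adenocarcinoma cell line, was hybridized on 2 arrays, 1 from cells given MYC siRNA (a pool of siRNAs against MYC) and 1 from cells given control siRNA (a non-targeting pool, although its treatment label is None). Both received 20 nM siRNA by reverse transfection for 24 h and were used after 48 h. Routine culture medium held serum, transfection was in Opti-MEM, and the serum level during the treatment is not given in the sources used here. The values are MAS5 signals, a linear measure of probe brightness that the authors scaled to a mean target level of 100 on each array, so that a difference in total RNA per cell, or in the share of cells that express a gene, cannot be told apart from a difference in signal. Each group has 1 array, so no p-value is given and the differences below were not checked in replicate cultures.

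PI3-kinase, made of a catalytic and a regulatory subunit, phosphorylates a membrane lipid when growth factor receptors are active, and that lipid recruits the kinase AKT to the membrane. AKT inhibits the TSC complex, which otherwise keeps the small GTPase RHEB inactive, and active RHEB switches on mTORC1, the mTOR complex with raptor that drives protein synthesis and restrains autophagy. The second mTOR complex, mTORC2, holds rictor in place of raptor and phosphorylates AKT and its relative SGK1, a kinase whose transcript is short-lived and induced by serum and glucocorticoids, and which in the distal colon is known for promoting sodium uptake. Most of this regulation acts on proteins by phosphorylation, which arrays do not measure.

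MYC itself had a signal of 1640 with MYC siRNA, against 1963 with control siRNA, in its only probe set, which is 1.20-fold lower. Of the 17127 probe sets with a signal over 50 in either array, 22.4% had a ratio as low or lower. This is RNA only. The study assessed the knockdown by immunoblot of MYC protein, and also reported lower expression of curated MYC target genes with MYC siRNA. The report on target genes comes from the microarray data of its MYC siRNA experiments, so it is not independent of the arrays described here. The signal exceeded 50 in 16571 probe sets with MYC siRNA and in 16074 with control siRNA. Of 11 colon epithelial markers with a probe set, 9 were above 50, 7 of them higher and 2 lower with MYC siRNA, while CDX1 and CDX2 were at or under 3.56 in both arrays. Of 11 markers of blood, endothelial, stromal and liver cells, only COL1A1 exceeded 50, in 1 of its probe sets, at 78.9 with MYC siRNA and 94.7 with control siRNA.

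Among the listed genes, SGK1 stood highest with MYC siRNA, AKT1 and PIK3R1 were moderately higher, MTOR was lower, and PIK3CB, TSC2, RHEB and RICTOR lay close to equal signals. As in the methods of the study, 50 replaced any lower signal, and a probe set was an UP DEG where the signal with MYC siRNA was at least 2 times that with control siRNA and a DOWN DEG where it was 0.5 times or less. Of the 25 probe sets, 15 exceeded 50 in at least 1 array, and they covered 8 genes; the other 10 are given no fold. None of the 15 was an UP DEG and none a DOWN DEG, beside 2.19% UP and 0.607% DOWN over all probe sets above 50. Of the 15, 11 were higher and 4 lower, beside 50.8% and 49.2% over all. At a threshold of 1.5-fold, 1 of the 15 was higher (SGK1) and none was lower, beside 9.13% and 5.83% over all. With the brightest probe set standing for each gene, 6 of the 8 genes were higher and 2 lower, beside 53.5% higher and 46.5% lower over all 8917 genes above 50. The median log2 ratio of the 8 genes was 0.09 and that of all genes 0.03.

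**Figure D1:**
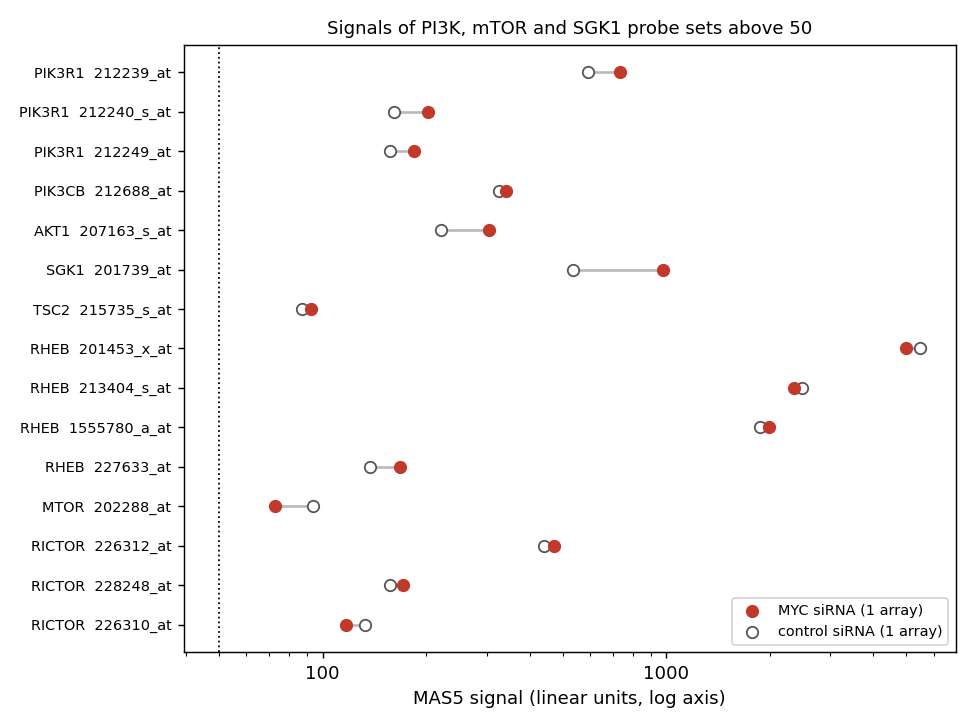
MAS5 signal (x axis, log scale) with MYC siRNA (filled red) and control siRNA (open) of the 15 listed probe sets over 50 in either array (y axis, gene and probe set), 1 array each, with a dotted line at 50. The widest gap is that of SGK1, at 978 with MYC siRNA and 536 with control siRNA, and MTOR and 3 further probe sets, of RHEB and RICTOR, are lower with MYC siRNA.

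SGK1 encodes the serum- and glucocorticoid-regulated kinase. Its only probe set, 201739_at, had a signal of 978 with MYC siRNA and 536 with control siRNA, 1.83-fold higher (log2 ratio 0.87). Of all probe sets above 50, 3.28% had a ratio at least as high. The log2 ratio exceeded the 90th percentile, 0.50, of the 1783 genes at like signal (1 of 5 equal groups of all genes above 50), and it was also larger than the SD of 0.17 between probe sets of the same gene among bright genes, a spread that leaves out variation between cultures. The ratio stayed under the 2-fold threshold of an UP DEG. Among the colon epithelial markers above 50, log2 ratios by brightest probe set ran from -0.19 (EPCAM) to 0.79 (LGALS4, at 3056 with MYC siRNA and 1771 with control siRNA). Between them lay KRT19 (0.60), KRT20 (0.50), VIL1 (0.39), KRT8 (0.175), CDH1 (0.16), CDH17 (at least 0.14, its control signal being under 50) and KRT18 (-0.03). The signals of all 11 markers ranged from 0.621 to 9306 with MYC siRNA and from 1.67 to 9363 with control siRNA, and their part in the SGK1 ratio was not tested. RefSeq (GRCh38.p14) gives SGK1 3 promoter windows, each from 250 bases before to 50 after an annotated start, and the probe set does not tell which start was used. They are shown because SGK1 had the largest difference of the listed genes, and they were searched for CACGTG, the E-box letters that MYC and MAX are known to bind. The letters read the same on both strands, and 7.26% of all 35116 windows hold them.

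SGK1 chr6:134318063-134318362 (- strand): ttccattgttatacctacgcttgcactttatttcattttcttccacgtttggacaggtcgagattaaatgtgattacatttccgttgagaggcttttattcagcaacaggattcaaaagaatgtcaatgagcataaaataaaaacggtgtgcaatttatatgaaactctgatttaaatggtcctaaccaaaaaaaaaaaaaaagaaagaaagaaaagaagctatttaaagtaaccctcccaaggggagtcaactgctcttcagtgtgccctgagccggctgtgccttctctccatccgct
SGK1 chr6:134177812-134178111 (- strand): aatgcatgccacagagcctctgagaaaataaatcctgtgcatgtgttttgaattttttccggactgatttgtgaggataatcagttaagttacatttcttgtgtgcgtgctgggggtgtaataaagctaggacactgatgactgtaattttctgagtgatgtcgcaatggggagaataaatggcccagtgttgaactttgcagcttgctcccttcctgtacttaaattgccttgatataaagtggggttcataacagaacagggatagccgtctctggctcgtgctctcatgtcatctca
SGK1 chr6:134174817-134175116 (- strand): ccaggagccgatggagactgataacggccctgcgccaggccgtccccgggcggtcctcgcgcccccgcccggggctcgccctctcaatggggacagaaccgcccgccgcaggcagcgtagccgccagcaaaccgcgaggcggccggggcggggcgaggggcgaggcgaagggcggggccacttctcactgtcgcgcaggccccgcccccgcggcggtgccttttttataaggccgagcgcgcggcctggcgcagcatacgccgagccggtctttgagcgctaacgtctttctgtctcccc

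None of these windows holds CACGTG, so none has capitals. They differ in composition, with 38.0% G or C in the first as printed, 43.0% in the next and 73.3% in the last, beside a median of 58.7% over all windows.

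AKT1, a central kinase of the pathway downstream of PI3-kinase, was measured by 1 probe set, 207163_s_at, with a signal of 304 with MYC siRNA and 221 with control siRNA. This is 1.37-fold higher (log2 ratio 0.46), and 14.0% of all probe sets had a ratio at least as high. The ID of this probe set marks that it can bind several transcripts. The log2 ratio was above the SD of 0.23 between probe sets of genes at like signal, but below the 90th percentile of genes at like signal, 0.59.

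PIK3R1 encodes a regulatory subunit of PI3-kinase, which holds the catalytic subunit inactive until a receptor or adaptor binds it. All 3 of its probe sets were higher with MYC siRNA. The signals with MYC siRNA and control siRNA were 734 and 594 in 212239_at, 203 and 162 in 212240_s_at, and 184 and 157 in 212249_at. The folds were 1.24, 1.26 and 1.17, with a mean log2 ratio of 0.29 ± 0.05 (SD, n = 3 probe sets), so the probe sets differed little from each other. They read the same RNA and are no replicates of the cultures. Of 1033 genes with 3 probe sets above 50, 32.2% had all 3 higher.

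PIK3CB, a catalytic subunit of PI3-kinase, had a signal of 341 with MYC siRNA and 326 with control siRNA in 212688_at, 1.05-fold higher (log2 ratio 0.07). This is within the SD of 0.17 between probe sets of genes at like signal. The second probe set, 217620_s_at, lay just under the floor in both arrays, at 49.1 with MYC siRNA and 49.8 with control siRNA.

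**Figure D2:**
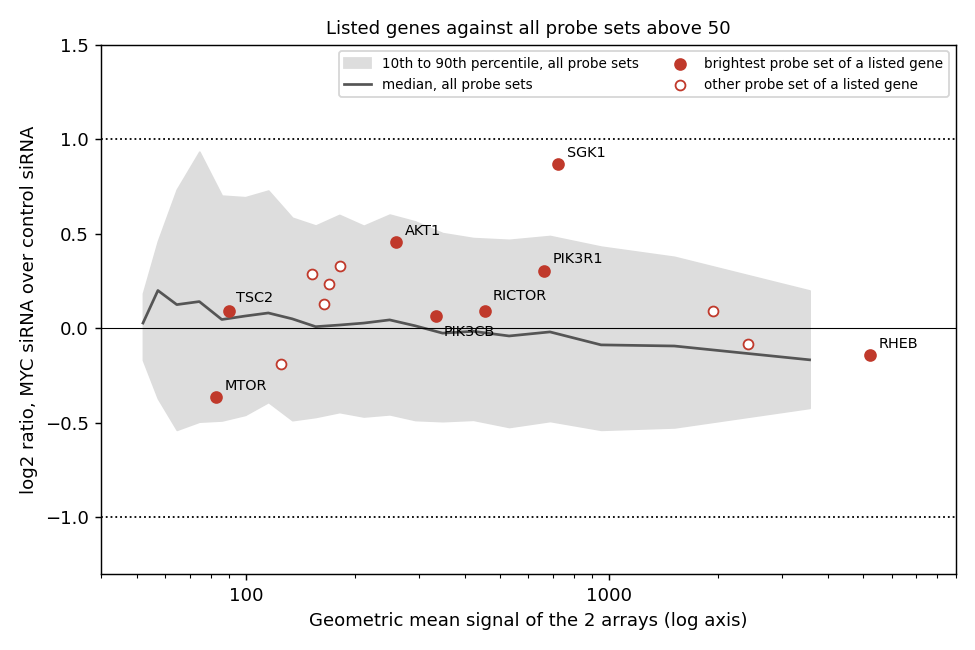
MYC siRNA over control siRNA as a log2 ratio (y axis) against the geometric mean signal of the 2 arrays (x axis, log scale) for the brightest (filled) and other (open) probe sets of the listed genes. The grey band spans the 10th to 90th percentile of all probe sets above 50 in 20 equal bins of signal and the grey line is their median; dotted lines mark 2-fold. SGK1 (0.87) lies above the band and the other filled points lie within it or, for RHEB, beyond the last bin's centre.

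TSC2, the GTPase-activating subunit of the TSC complex that turns RHEB off, had a signal of 92.8 with MYC siRNA and 87.0 with control siRNA in 215735_s_at, 1.07-fold higher (log2 ratio 0.09). The ratio lay within the spread of dim genes (an SD of 0.28 between the probe sets of 1 gene), and the second probe set, 215624_at, was under 50 at 14.8 with MYC siRNA and 3.37 with control siRNA. TSC2 was the only listed gene with CACGTG in a promoter window, in 1 of its 2 windows and 1 of the 18 windows of the 10 genes. The window is printed for that reason, with the letters in capitals, and they begin 114 bases before the annotated start.

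TSC2 chr16:2047735-2048034 (+ strand): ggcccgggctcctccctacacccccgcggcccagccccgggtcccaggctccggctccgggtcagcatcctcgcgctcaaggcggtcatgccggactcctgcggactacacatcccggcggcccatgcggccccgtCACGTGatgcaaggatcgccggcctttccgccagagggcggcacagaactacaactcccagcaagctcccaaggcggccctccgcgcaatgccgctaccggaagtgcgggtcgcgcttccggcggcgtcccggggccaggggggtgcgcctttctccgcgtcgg

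The match is a description of the sequence, and binding was not measured. The FOXO motif GTAAACA was searched on both strands too, since FOXO factors are known to be held inactive by AKT and SGK1. It was in 3.42% of all windows and in 1 window of the listed genes, that of PIK3CA.

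RHEB, the GTPase that activates mTORC1, had 9 probe sets, 4 of them above 50. Their directions differed. In 201453_x_at the signal was 4971 with MYC siRNA and 5490 with control siRNA (1.10-fold lower), and in 213404_s_at it was 2352 with MYC siRNA and 2488 with control siRNA (1.06-fold lower). In 1555780_a_at it was 1989 with MYC siRNA and 1869 with control siRNA (1.06-fold higher), and in 227633_at 168 with MYC siRNA and 137 with control siRNA (1.22-fold higher). The mean log2 ratio was 0.04 ± 0.19 (SD, n = 4 probe sets), and no direction can be given for this gene. The only one of the 4 whose ID does not mark binding to several transcripts is 227633_at. The other 5 ranged from 0.309 to 41.2 with MYC siRNA and from 1.70 to 47.1 with control siRNA. Brighter probe sets tended to lower ratios over the whole array, and of 5 equal groups of genes by signal the dimmest had a median log2 ratio of 0.15, the brightest one of -0.10. After loess on mean signal the 4 probe sets of RHEB were all slightly above 0, between 0.02 and 0.25.

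MTOR encodes the kinase shared by both mTOR complexes. The signal of 202288_at was 72.8 with MYC siRNA and 93.7 with control siRNA, 1.29-fold lower (log2 ratio -0.36), the lowest ratio among the listed genes. Of all probe sets above 50, 14.8% had a ratio as low or lower. The ratio was beyond that same spread of 0.28 (SD), but inside the 10th percentile of genes at like signal, -0.37. The second probe set, 215381_at, was under 50, at 2.34 with MYC siRNA and 4.45 with control siRNA. Both signals of 202288_at lie under 100, and with signals under 100 set to 100 the ratio is 1 by construction. The promoter window of MTOR, the listed gene with the lowest ratio, is printed beside those of SGK1 and TSC2 and holds no CACGTG.

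MTOR chr1:11262502-11262801 (- strand): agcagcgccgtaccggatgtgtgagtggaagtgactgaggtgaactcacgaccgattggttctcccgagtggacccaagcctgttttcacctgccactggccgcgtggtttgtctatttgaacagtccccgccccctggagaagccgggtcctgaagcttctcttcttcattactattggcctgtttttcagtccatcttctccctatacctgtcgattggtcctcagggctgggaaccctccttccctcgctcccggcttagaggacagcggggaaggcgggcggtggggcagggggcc

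RPTOR, which encodes raptor, the scaffold of mTORC1, was at or under 50 in its only probe set, 225715_at, with a signal of 40.2 with MYC siRNA and 48.0 with control siRNA, and is given no fold. RICTOR, which encodes the scaffold of mTORC2, had 4 probe sets, 3 of them above 50, and they did not share a direction. The signals were 471 with MYC siRNA and 441 with control siRNA in 226312_at, and 172 with MYC siRNA and 157 with control siRNA in 228248_at, 1.07-fold and 1.09-fold higher. In 226310_at they were 117 with MYC siRNA and 133.1 with control siRNA, 1.14-fold lower. The mean log2 ratio of RICTOR was 0.01 ± 0.17 (SD, n = 3 probe sets), so no difference was resolved. The fourth, 1552734_at, read 12.2 with MYC siRNA and 11.4 with control siRNA.

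The order of the log2 ratios by brightest probe set was SGK1 (0.87), AKT1 (0.46), PIK3R1 (0.31), RICTOR (0.09), TSC2 (0.09), PIK3CB (0.07), RHEB (-0.14) and MTOR (-0.36). AKT1 and PIK3R1, and the neighbours from RICTOR to PIK3CB, differed by less than the SD between probe sets of a gene at the signal of either. RHEB and MTOR differed by less than the SD of 0.28 at the signal of MTOR. SGK1 was the only one of the 8 outside the 10th to 90th percentile of genes at like signal. By definition 10% of the genes at like signal lie above this range and 10% below it, so 1 gene of 8 outside it is not by itself unusual.

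**Figure D3:**
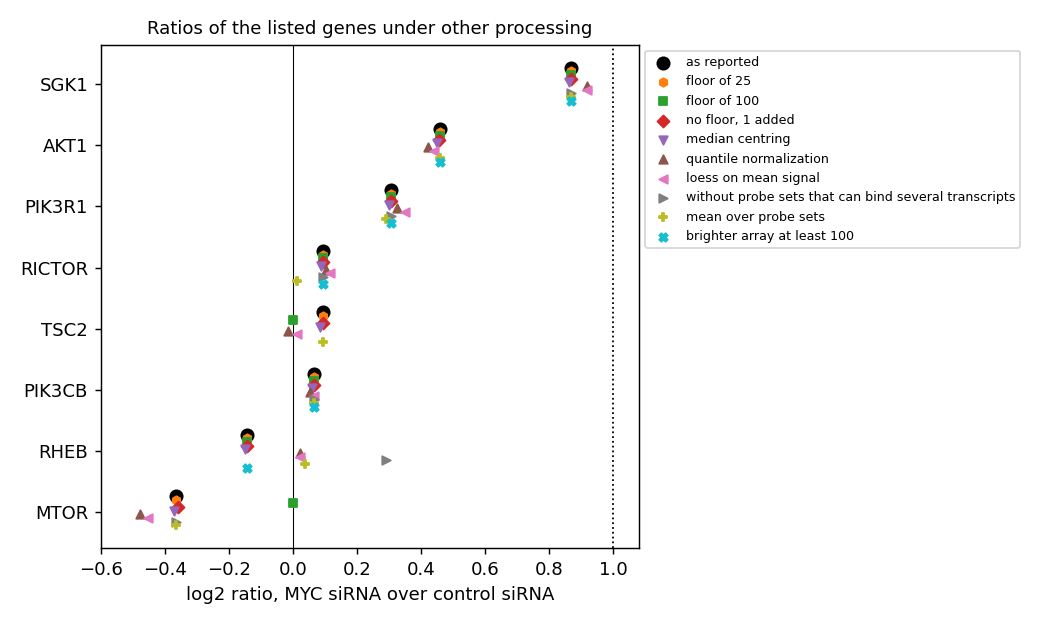
Log2 ratios (x axis, MYC siRNA over control siRNA) for the 8 listed genes above 50 (y axis) as reported (black) and under other floors, normalizations and choices of probe set (coloured). SGK1 stays between 0.86 and 0.92 and AKT1 between 0.42 and 0.46, RHEB ranges from -0.15 to 0.29, and MTOR reaches 0 with a floor of 100; the dotted line marks 2-fold. SGK1 and AKT1 have 1 probe set each, with signals above the floors, so some alternatives could not move them.

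A further 89 pathway genes were listed by role, of which 83 had a probe set of their own and 67 were above 50. By brightest probe set, 3 of these 67 were UP DEGs (INPP4B, PRR5L and NDRG1) and 1 was a DOWN DEG (EIF4EBP1). Over all genes the shares were 2.73% and 0.695%. Of the 126 probe sets above 50 of these genes, 4 were UP and 1 was DOWN, beside 2.19% and 0.607% over all probe sets. The UP probe set that the count by gene leaves out is the dimmer one of IRS2. At 1.5-fold 9 were higher and 2 lower, beside 10.4% and 5.72%. In all, 42 were higher and 25 lower, beside 53.5% and 46.5% over all genes, shares that also stand beside the counts by role below. The median log2 ratio was 0.09, the same as that of the listed genes to 2 decimals, beside 0.03 over all genes. The 6 of the 89 without a probe set of their own were not analysed here. With signals under 100 set to 100, NDRG1 alone was UP (2.19-fold), with PRR5L at 1.79-fold and INPP4B at 1.37-fold. Without probe sets that can bind several transcripts, INPP4B alone was UP (2.41-fold), PRR5L was at least 1.95-fold higher and NDRG1 had no value.

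Receptors and adaptors that feed PI3-kinase were higher in 4 of 5 genes (median log2 ratio 0.39). IRS2, an adaptor that recruits PI3-kinase to insulin and IGF receptors, had a signal of 517 with MYC siRNA and 291 with control siRNA (1.78-fold higher), and its second probe set 202 with MYC siRNA and 69.8 with control siRNA (2.89-fold higher). Its relative IRS1 was at 825 with MYC siRNA and 540 with control siRNA, 1.53-fold higher, and another of its probe sets was 1.87-fold higher, while a dim one was under 50 with MYC siRNA and at 54.1 with control siRNA. GAB1, a docking protein, was 1.31-fold higher. Genes listed as other PI3-kinase subunits also include members of the wider family, beyond the receptor-activated enzyme described above. By brightest probe set, they ranged from PIK3R4 at 1.18-fold lower to PIK3C3 at 1.10-fold higher, with PIK3C2A 1.09-fold higher. The 5 probe sets of PIK3C2A above 50 did not share a direction, and 235792_x_at was 1.34-fold lower, at 136 with MYC siRNA and 183 with control siRNA.

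The phosphatases that act on PI3-kinase lipids or on AKT were higher in 7 of 7 genes, with a median log2 ratio of 0.42, which is 0.35 after loess on mean signal. INPP4B, which removes a phosphate from a PI3-kinase lipid product, was at 137 with MYC siRNA and 56.7 with control siRNA (2.41-fold higher), and its other probe set above 50 was 1.76-fold higher. INPP4A was at 117 with MYC siRNA and 63.9 with control siRNA (1.84-fold), and INPPL1 at 109 with MYC siRNA and 60.5 with control siRNA (1.80-fold). These 3 control signals lie near the floor, and in the dimmest of the 5 signal groups the median log2 ratio over all genes was 0.15.

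Relatives of the listed kinases did not share the ratios of AKT1 and SGK1. AKT2 was at 369 with MYC siRNA and 435 with control siRNA (1.18-fold lower), and all 4 of its probe sets above 50 were lower. Of 364 genes with 4 probe sets above 50, 55.5% had all 4 in the same direction. SGK2 was at 204 with MYC siRNA and 226 with control siRNA (1.11-fold lower), and 1.81-fold lower in its second probe set. RPS6KB1, the S6 kinase that mTORC1 activates, was at 352 with MYC siRNA and 464 with control siRNA (1.32-fold lower), and lower in 3 of 3 probe sets. Of 1033 genes with 3 probe sets above 50, 63.5% had all 3 in the same direction. Of the 5 kinases of this list, 4 were lower and 1, PDPK1, was at a log2 ratio of 0.03 in its brightest probe set. Another probe set of PDPK1, 32029_at, was at 120 with MYC siRNA and 74.3 with control siRNA, 1.62-fold higher.

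**Figure D4:**
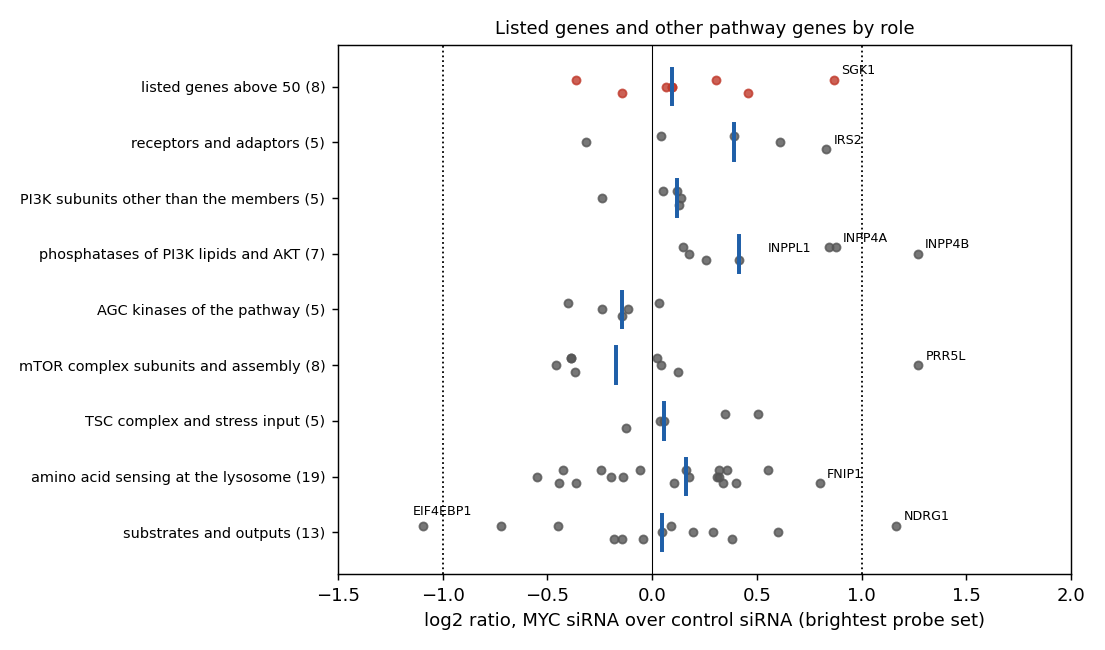
Log2 ratios (x axis, MYC siRNA over control siRNA) for the listed genes above 50 (red) and the other pathway genes (grey) by role (y axis, number of genes in brackets), each by its brightest probe set. Blue bars are medians and dotted lines mark 2-fold; the phosphatases all lie right of 0, and EIF4EBP1 is the only point left of the lower 2-fold line.

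Subunits and assembly factors of the mTOR complexes were split, 4 higher and 4 lower of 8. AKT1S1, the mTORC1 subunit that AKT phosphorylates, was at 311 with MYC siRNA and 427 with control siRNA (1.37-fold lower). MLST8, a subunit of both complexes, was at 180 with MYC siRNA and 236 with control siRNA (1.31-fold lower), the direction of MTOR. PRR5L, which binds mTORC2, had the highest ratio of the 8, at 179 with MYC siRNA and 74.4 with control siRNA (2.41-fold higher), and in another probe set at 97.7 with MYC siRNA against a control signal under 50 (at least 1.95-fold higher). In the TSC list, TSC1, the partner of TSC2, was at 162 with MYC siRNA and 114 with control siRNA (1.42-fold higher). STK11, a kinase upstream of AMPK, was 1.27-fold higher in its brightest probe set and 1.08-fold lower in its other one above 50, and DDIT4, which activates the TSC complex under stress, was 1.09-fold lower.

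Genes of amino acid sensing at the lysosome were higher in 11 of 19 and lower in 8. FNIP1, a folliculin partner that acts on Rag GTPases, was at 347 with MYC siRNA and 200 with control siRNA (1.74-fold higher), and SLC38A9, a lysosomal arginine sensor, at 141 with MYC siRNA and 96.2 with control siRNA (1.47-fold higher). NPRL3, a subunit of the Rag inhibitor GATOR1, was at 76.5 with MYC siRNA and 112 with control siRNA (1.47-fold lower), although another of its probe sets was 1.03-fold higher. Within this list, subsets that the lists did not define were also counted, and since they were not planned, their counts are a description only. Rag GTPases and LAMTOR subunits were higher in 6 of 6 genes (median log2 ratio 0.24). Subunits of GATOR1, GATOR2 and KICSTOR were lower in 7 of 7 (median -0.36). None of these genes passed 1.5-fold by brightest probe set.

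Among substrates and outputs, EIF4EBP1, the mTORC1 substrate that blocks cap-dependent translation, had a signal of 236 with MYC siRNA and 504 with control siRNA (2.13-fold lower). Its relative EIF4EBP2, named after its values were seen, went the other way, with 355 with MYC siRNA and 291 with control siRNA in the brightest probe set (1.22-fold higher) and up to 1.91-fold higher in the others above 50. NDRG1, a substrate of SGK1, was at 219 with MYC siRNA and 97.6 with control siRNA (2.24-fold higher). TBC1D4, an AKT substrate that controls glucose transporter traffic, was at 421 with MYC siRNA and 694 with control siRNA (1.65-fold lower), and 1.83-fold lower in its second probe set. In this list 7 genes were higher and 6 lower, with a median log2 ratio of 0.05.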

How the data were processed

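RNA of 2 HT-29 cultures was hybridized on GeneChip Human Genome U133 Plus 2.0 arrays. The deposited intensity values are MAS5 signals made by the authors with affy 1.40.0, on a linear scale, with the mean of each array set to a target of 100, which the mean without the outer 2% at each end met in both arrays. They carry no floor and, beyond this scaling, no normalization between arrays, so bright and dim probe sets can drift apart. Array data give no read depth; 1 array per group limits precision.

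The platform annotation gives 1 gene for 41097 of 54675 probe sets, with symbols updated to RefSeq GRCh38.p14. Signals under 50 were set to 50 and log2 ratios of MYC siRNA to control siRNA taken. A gene took its brightest probe set. The SD between probe sets of a gene was pooled over 4040 genes in 3 equal groups of signal. Named are every probe set of the listed genes and, of the other pathway lists, genes past 2-fold and up to 3 per list with the largest ratio at a signal of at least 100; EIF4EBP2, PDPK1 and second probe sets were added after values were seen. The members and lists were chosen with earlier results of these data known. The subset of Rag GTPases and LAMTOR subunits and that of GATOR1, GATOR2 and KICSTOR subunits were not part of these lists. Alternatives were floors of 25 and 100, no floor with 1 added, folds of 1.5 and 3, median centring, quantile normalization, loess (span 0.3), only probe sets specific to 1 transcript by their ID, means over probe sets, and a brighter array of at least 100. Calculations, tested on simulated data, used Python 3.11.15, numpy 2.4.6, pandas 2.3.3 and statsmodels 0.14.6, with figures by matplotlib 3.10.9.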

Additional observations from a re-analysis of the deposited data

How the results depend on the processing

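Of 128 values recomputed under the alternatives, 118 kept within the SD between probe sets or, for counts, within 1.5 times, and 10 moved further. The 118 include values that could not change, since some alternatives do not act on a bright gene or on a gene with 1 probe set. A floor of 25 left the ratio of every listed gene as it was. SGK1 lay between 0.86 and 0.92 on the log2 scale, and could move only where 1 was added or the normalization changed. PIK3R1 lay between 0.29 and 0.35. TSC2 was at -0.01 after quantile normalization. The log2 ratio of RHEB was 0.29 without probe sets that can bind several transcripts and 0.039 as the mean over probe sets, and 0.02 after quantile normalization and after loess, so its sign depends on the setting; the cause was not tested. MTOR was at 0.00 with a floor of 100, where both signals are under the floor. Of the listed probe sets, 1 was UP at 1.5-fold and 0 under the other alternatives. Of the other pathway genes, 1 was UP with a floor of 100 and 1 without probe sets that can bind several transcripts. As the mean over probe sets, 4 were UP. At 1.5-fold 9 were UP and 2 DOWN, and at 3-fold 0 and 0. AKT1 and TSC2 have no value without probe sets that can bind several transcripts, and TSC2 and MTOR none with a brighter array of at least 100. The floor limits dim genes most, since 10 of the 25 listed probe sets gave no fold. No paired analysis was possible because each group has 1 array.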
